A study of Mus musculus with 3 samples.

Results

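The respiratory chain is the set of protein complexes of the inner mitochondrial membrane that passes electrons from NADH and succinate to oxygen and uses the resulting proton gradient to make ATP. Complex I (NADH dehydrogenase), complex III (cytochrome bc1) and complex IV (cytochrome c oxidase) pump protons, complex II (succinate dehydrogenase) feeds electrons in without pumping, and complex V (ATP synthase) lets protons flow back through its membrane part Fo to drive its catalytic head F1. Most subunits are encoded in the nucleus, and a small catalytic core of complexes I, III, IV and V is encoded in mitochondrial DNA. In the bone marrow, stem cells are known for a low use of this chain, and stromal cells for a mixed use of glycolysis and respiration that shifts as they differentiate. The genes described here are the nuclear ones, chosen by symbol: probe sets annotated to a single gene whose name marks a subunit of complexes I to V or a complex I assembly factor, with the brightest probe set taken for each gene. This gave 89 genes of the 19938 on the array: 41 for complex I (6 core subunits, 28 accessory subunits and 7 assembly factors), 4 for complex II, 9 for complex III, 18 for complex IV and 17 for complex V (5 of F1 with its central stalk, and 12 of Fo with the peripheral stalk). None of the 13 proteins of the mitochondrial genome had a named probe set, so they are not analysed here, and neither are Ndufb1, Ndufb4, Ndufaf8 and Cox7c.

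The study set 2 stromal cell populations of mouse bone marrow (tibia, femur and pelvis, at baseline) side by side on 3 arrays. CXCL12-abundant reticular (CAR) cells, sorted from 2 CXCL12-GFP knock-in mice, gave 2 replicate arrays. PDGFRa+ Sca+ CD45- lineage- cells, called PaS here, were combined from 3 Prx1-Cre Rosa26Ai9/+ Cxcl12gfp/+ mice into 1 array. Every mouse thus carried GFP at the Cxcl12 locus. The PaS mice also carried a Cre driven by the Prx1 promoter of limb mesenchyme and a Rosa26 reporter, so genotype and cell type cannot be told apart. The labels give no strain, age or sex.

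The PaS array stood apart from its label, and this touches every difference below. The stromal genes Cxcl12, Pdgfra, Prrx1, Lepr, Pdgfrb and Kitl had a summed intensity of 4203 and 4890 in CAR cells and 346 on the PaS array. All 6 lay at or above the median of the PaS array. CAR cells are named for abundant CXCL12, so a lower Cxcl12 does not by itself go against the PaS label. Pdgfra, although used to gate the PaS cells, had a log2 intensity of 7.52 and 7.97 in CAR cells and 4.33 on the PaS array. The 6 general blood cell genes, Ptprc (which encodes CD45) among them, summed to 213 and 268 on the CAR arrays, against 1700 on the PaS array, and 9 neutrophil genes to 2925 and 2628 against 15367. Of 6 endothelial markers 3 fell in CAR cells, with sums of 58.3 and 53.9 against 226 over the list, and 8 of 9 cell cycle genes fell (median log2 difference −2.43). Their part in the differences of respiratory chain genes was not tested. In bulk samples, fewer cells of a type and less RNA per cell cannot be told apart. A further property of the arrays matters for bright genes: the interquartile range of log2 intensity over all genes was 1.96 and 2.28 in CAR cells and 1.35 on the PaS array, so that bright genes lay higher and dim genes lower on the CAR arrays.

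Respiratory chain genes were bright. Their median log2 intensity was 5.13 and 5.79 on CAR arrays 1 and 2 and 5.31 on the PaS array, against 3.74, 3.75 and 3.77 for all genes, and 77, 81 and 83 of the 89 lay above the median of their array. Only 5 lay below the median on all 3 arrays: the assembly factors Ndufaf5 and Ndufaf6, Uqcrq, a small complex III subunit, and the tissue isoforms Cox8b and Cox7b2 of complex IV.

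As a group the chain did not lean one way in the values as deposited. The median difference, CAR minus PaS, was −0.06 log2 units over the 89 genes and −0.10 over all genes, and 39 members lay above 0 and 50 below. Both CAR arrays lay above the PaS array for 29 members and below it for 38, and for 22 the PaS value lay between the CAR values. Over all 19938 genes these counts were 7461, 9324 and 3153, so most genes had both CAR arrays on the same side. In limma's test over all genes (Benjamini-Hochberg adjusted p under 0.05), 5 members rose in CAR cells, 2 fell and 82 did not pass, so 7.87% were called against 15.0% of all genes (8.56% higher and 6.42% lower). By size alone, 5 members were at least 2-fold higher in both CAR arrays and 9 at least 2-fold lower, or 5.62% and 10.1%, beside 10.9% and 8.92% of all genes. These shares are near or below those of all genes, but the members are brighter than most genes. Of the 4985 genes with the highest mean level, 64 of them members, 27.4% were called in limma's test. By size, 27.4% of these bright genes stood 2-fold above the PaS array on both CAR arrays, and 6.22% stood 2-fold below. Beside them, a smaller share of members was called or raised 2-fold, and a larger share lowered 2-fold. These gaps were not tested and hold for the values as deposited.

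The balance depended on how the arrays were scaled. The 4985 genes with the highest mean of CAR and PaS levels, 64 members among them, had a median difference of 0.51. When the 3 arrays were quantile normalized, which gives them the same spread, that median was −0.02 and the members' median was −0.55. In that setting 31 members fell and 7 rose, against 14.2% and 13.2% of all genes (27.4% in either direction), and 16 members moved from above 0 to below it while 1 moved the other way. Centring the arrays on their medians gave 7 higher and 10 lower (12.3% and 9.59% of all genes), a robust variance prior 5 and 8 (10.9% and 8.92%), the 81 members at or above the median level 5 and 9 (20.7% and 5.12% of such genes), and a pseudocount of 1 gave 4 and 1 (8.02% and 5.16%).

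**Figure D1:**
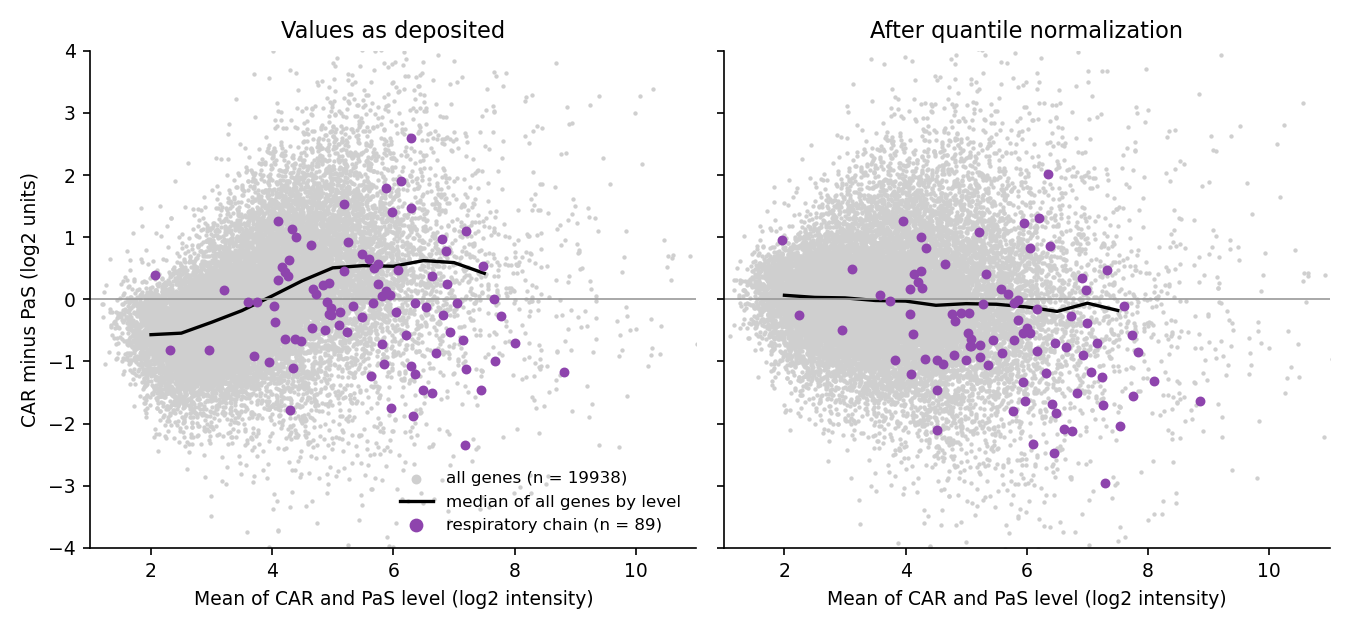
Difference between CAR cells and the PaS array (log2 units) against the mean of the CAR and PaS levels (log2 intensity) for all genes (grey) and the 89 respiratory chain genes (purple), before (left) and after (right) quantile normalization; the line is the median of all genes in steps of level holding at least 100 genes, and the 70 genes (67 on the right) more than 4 log2 units apart are not drawn. The line rises with level on the left and is nearly flat on the right, where the median of the members is −0.55 instead of −0.06.

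**Figure D2:**
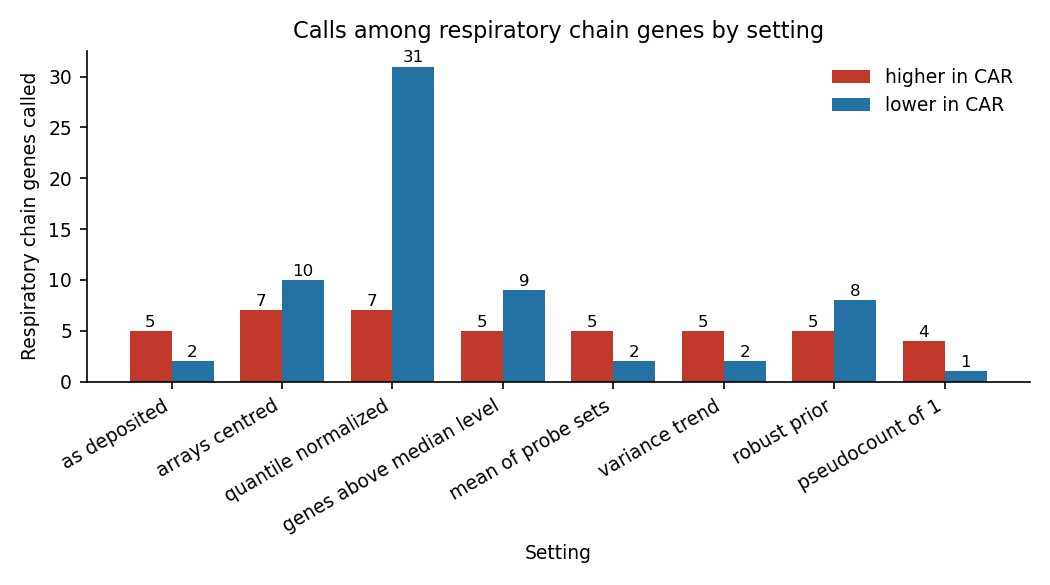
Number of respiratory chain genes past the test (limma, adjusted p under 0.05), higher (red) or lower (blue) in CAR cells, under each setting. The count of higher genes lies between 4 and 7, and the count of lower genes between 1 and 31, with the most after quantile normalization.

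The 5 genes that rose in CAR cells belong to complexes I, IV and V. Ndufs4, an accessory subunit of complex I whose loss causes Leigh syndrome in humans and a fatal encephalopathy in mice, had a log2 intensity of 7.86 and 7.30 on the CAR arrays, against 4.99 on the PaS array. That is a 6.03-fold difference (2.59 ± 0.35 log2 units, SE; limma adjusted p = 0.0196), the largest of all members as deposited; after quantile normalization it was 2.01, smaller in size than the −2.95 of Cox4i1 and several other falls. Ndufc1, a small subunit of the membrane arm of complex I, stood at 7.05 and 6.51 against 4.98, 3.47-fold higher (adjusted p = 0.0346 in limma's test), and its second probe set gave a difference of 1.57 beside 1.80. Ndufb10, an accessory subunit of the distal membrane arm, was at 6.71 and 6.66 against 5.27 (2.66-fold, limma adjusted p = 0.0367; 0.0617 after quantile normalization). For each of these genes both CAR arrays lay above the PaS array; they differed from each other by 0.56 and 0.53 log2 units for Ndufs4 and Ndufc1, and by 0.06 for Ndufb10.

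Cox8a, the widely expressed isoform of the smallest complex IV subunit, had log2 intensities of 6.66 and 7.50 in CAR cells and 5.18 on the PaS array, a 3.73-fold difference (1.90 ± 0.42, SE; limma adjusted p = 0.0451). Atp5d, the delta subunit in the central stalk of ATP synthase, was at 6.85 and 7.20 against 5.55, 2.77-fold higher (adjusted p = 0.0403 in limma's test). Its difference was 1.47 log2 units as deposited and 0.85 after quantile normalization (limma adjusted p = 0.0459). The calls of Ndufs4, Ndufc1 and Atp5d were kept under all 8 alternative settings that allow a test. That of Cox8a was lost with a pseudocount of 1 (adjusted p = 0.0511) and that of Ndufb10 with quantile normalization.

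The 2 genes that fell were both counted under complex IV, Ndufa4l2 as a paralogue of one of its subunits. Cox4i1, the ubiquitous form of subunit 4, which joins the enzyme early in its assembly, had 5.40 and 6.62 in CAR cells and 8.35 on the PaS array, 5.07-fold lower in CAR cells (−2.34 ± 0.54, SE; limma adjusted p = 0.0477, and 0.0551 with a pseudocount of 1). The CAR arrays differed by 1.22 log2 units for this gene, yet both lay below the PaS array. Ndufa4l2, a paralogue of the complex IV subunit Ndufa4 that is induced in hypoxia and found in pericytes, was at 3.45 and 3.36 against 5.20, 3.45-fold lower (adjusted p = 0.0248 in limma's test, kept under the same 8 alternatives). Its CAR values were under the array medians of 3.74 and 3.75, so the size of that fold is uncertain.

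**Figure D3:**
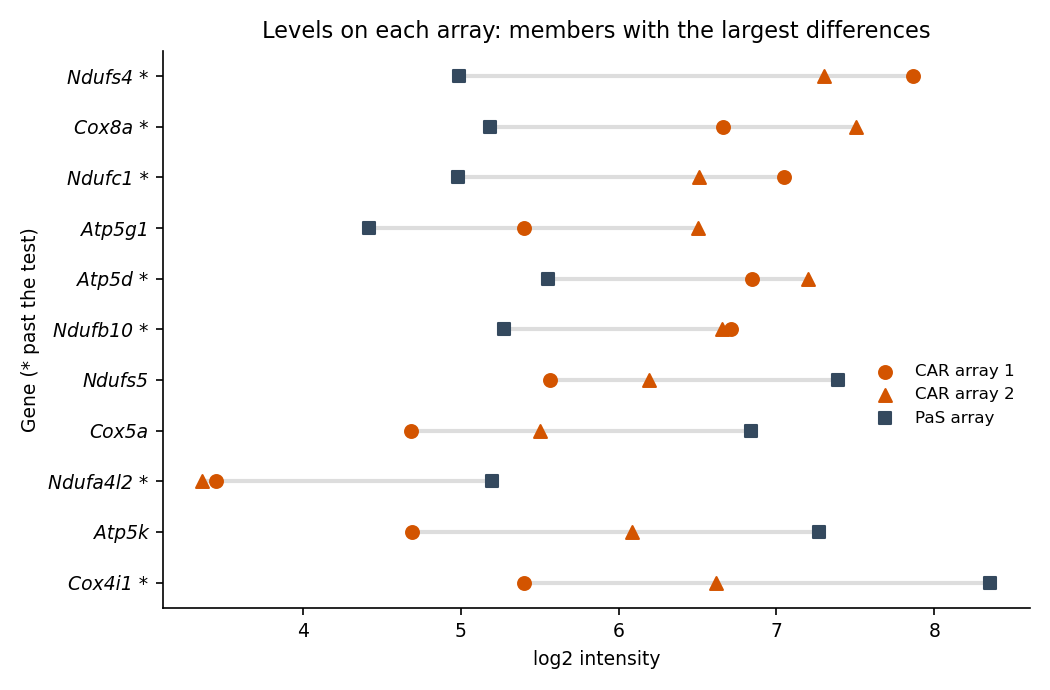
Log2 intensity on CAR array 1 (circles), CAR array 2 (triangles) and the PaS array (squares) for the 7 members past the test (asterisks) and the 5 with the largest difference in each direction, ordered by the difference. The CAR points lie right of the PaS point for the upper 6 genes, from Ndufs4 to Ndufb10, and left of it for the lower 5, from Ndufs5 to Cox4i1.

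Short stretches of DNA at the gene starts are shown because respiratory chain genes are known to share binding sites of the factors NRF1, GABP and YY1 in their promoters, and they are drawn mainly from the genes that rose. At least 1 of the 3 motifs stood in 30 of the 72 members with a promoter. Of the 5 members past the test with a promoter, 4 held a motif (Ndufs4, Ndufc1, Ndufb10 and Cox8a). These 4 rose, so at most 1 of the 5 could be a gene that fell. The count therefore cannot speak to direction. The share of all genes with at least 1 of the 3 motifs was not counted, and a link of motifs with direction was not tested. RefSeq promoters (GRCm38.p6, 250 bases before to 50 after the gene start) were at hand for 72 of the 89 members, and for 5 of the 7 that passed the test. The NRF1 letters GCGCANGCG, on either strand, stood in 21 of the 72 (29.2%) and in 7.03% of all 27025 genes with a promoter. The YY1 letters AAGATGGCG stood in 7 (9.72%, against 1.64% of all genes), and the GABP letters CCGGAAGT in 5 (6.94%, against 4.31%). Matches of different motifs did not overlap in any member. In the windows below the motif is in capitals, with up to 10 bases on each side, read 5′ to 3′ on the strand of the gene, which is the minus strand for all 5 genes.
Ndufs4, YY1 letters, chr13:114388045-114388069: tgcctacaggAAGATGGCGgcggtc
Ndufc1, YY1 letters, chr3:51408915-51408943: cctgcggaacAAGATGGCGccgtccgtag
Ndufb10, NRF1 letters, chr17:24724407-24724435: tcacctttctGCGCAGGCGtagaggtccc
Cox8a, GABP letters on the opposite strand, chr19:7217605-7217632: tttccgaaatACTTCCGGctcgggcgtc
Cox8a, GABP letters on the opposite strand, chr19:7217568-7217595: cagcgccggaACTTCCGGctggttcggc
Sdha, NRF1 letters, chr13:74350320-74350348: cgtttacaggGCGCAGGCGcaccaccact
Sdha, NRF1 letters, chr13:74350277-74350305: ggggcgtgttGCGCAGGCGcagaatcttc
Sdha, NRF1 letters, chr13:74350232-74350260: gcgactcggtGCGCAAGCGcagtctgtcg

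Sdha is shown as the member with 3 separate NRF1 matches. In Ndufs4 and Ndufc1 the YY1 letters begin 36 and 23 bases into the transcribed part, and in Ndufb10 the NRF1 letters begin 2 bases before the start. The median difference was −0.13 for the 21 members with NRF1 letters and −0.06 for those without, and −0.06 for both the 7 members with YY1 letters and those without. With GABP letters it was 0.53, over 5 members only, and −0.11 without. A match of letters is a description of the window and no evidence of binding.

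Complex I collects electrons from NADH in its peripheral arm. Of 6 core subunits measured, 0 passed the test, 5 lay above 0 and 1 below, with a median difference of 0.45 (0.12 after quantile normalization, where 3 lay above 0 and 3 below). The median was 0.14 with CAR array 1 alone and 0.81 with CAR array 2 alone. Ndufs1, the largest iron-sulfur subunit, had 4.70 and 5.09 on the CAR arrays, against 3.77 on the PaS array (1.13 ± 0.31 log2 units, SE; limma adjusted p = 0.0706, and 0.0279 after quantile normalization). Ndufv2, an iron-sulfur subunit of the NADH-oxidising module, was at 4.66 and 5.11 against 3.89, and its partner Ndufv1, which binds the flavin and NADH, at 4.21 and 4.99 against 3.96. Both CAR arrays lay above the PaS array for these genes of the electron input module. Ndufs7 and Ndufs8, which carry the last iron-sulfur centres before the quinone, differed by 0.23 and 0.27, less than their SEs of 0.32 and 0.38, and by −0.23 and −0.22 after quantile normalization. Ndufs3, a core subunit of the peripheral arm, differed by −0.21 (−0.84 after quantile normalization, limma adjusted p = 0.0496).

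The 28 accessory subunits of complex I held both extremes of that complex. Of these, 3 rose, 0 fell and 25 did not pass, so 10.7% were called against 15.0% of all genes. The median was −0.11 (−0.65 after quantile normalization, with 2 rising and 8 falling, beside 13.2% and 14.2% of all genes). Below the 3 that rose came Ndufb7, at 5.68 and 5.73 against 4.78, and Ndufa12, at 5.90 and 5.79 against 5.12, neither past the test (limma adjusted p = 0.0829 and 0.136). At the other end Ndufs5, a subunit facing the intermembrane space, was at 5.57 and 6.19 against 7.39 (−1.51 ± 0.37, SE; limma adjusted p = 0.0525). It missed the threshold narrowly, and passed with arrays centred (0.0249), with quantile normalization (0.0027), with a robust prior (0.0326) and with the dimmer genes left out (0.0293). Ndufb9 and Ndufa3 differed by −1.21 and −1.07. The differences among accessory subunits of this complex thus ran from −1.51 to 2.59, and exceeded 1 log2 unit in size for 6 of the 28.

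The complex I assembly factors act on building intermediates and are not part of the finished enzyme. Of 7 measured, 0 passed the test, with a median of −0.04. Ndufaf7, a methyltransferase that acts early in assembly, was at 3.72 and 3.84 against 4.89 (limma adjusted p = 0.0577, and 0.00686 after quantile normalization). Ndufaf3, which binds the early membrane intermediate, lay the other way, at 6.17 and 5.91 against 5.46 (adjusted p = 0.231 in limma's test).

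Complex II had 4 of 4 members measured and 0 past the test. Sdha, the flavoprotein that oxidises succinate, had 6.35 and 6.59 in CAR cells and 6.60 on the PaS array. Sdhb, the iron-sulfur subunit bound to it, was at 5.21 and 4.96 against 4.21 (0.88 ± 0.29, SE; limma adjusted p = 0.102). The membrane anchors Sdhc and Sdhd differed by −0.65 and −0.25. The PaS value lay between the CAR values for Sdhd, and both CAR arrays lay on the same side of it for the other subunits. Most of all 19938 genes also had both CAR arrays on the same side (7461 above and 9324 below). For Sdha CAR array 2 all but reached the PaS array.

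In complex III, 0 of 9 members passed the test, 5 lay above 0 and 4 below, and the median was 0.05 (−0.55 after quantile normalization, where 0 rose and 3 fell). The redox subunits were Uqcrfs1, the Rieske iron-sulfur protein, at 4.64 and 5.17 against 5.03, and Cyc1, cytochrome c1, at 5.19 and 5.70 against 6.17. Uqcrc1 and Uqcrc2, the paired core proteins, did not move alike: Uqcrc1 was at 4.87 and 5.15 against 6.24 (−1.23 ± 0.30, SE; limma adjusted p = 0.0525), and Uqcrc2 at 5.94 and 5.74 against 5.79. Uqcrc1 passed in 4 of the alternatives, as Ndufs5 did. Uqcrh, the hinge protein that aids the contact of cytochrome c1 with cytochrome c, was at 7.50 and 7.08 against 6.33 (limma adjusted p = 0.101).

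Complex IV had a median of −0.84, the lowest of the 8 groups of members as deposited, and of −0.78 after quantile normalization, where Fo with the peripheral stalk lay lower. Of its 18 measured members 1 rose, 2 fell and 15 did not pass, so 16.7% were called against 15.0% of all genes. After quantile normalization 1 rose and 9 fell, beside 13.2% and 14.2% of all genes. Both CAR arrays lay below the PaS array for 11 and above it for 5, beside 9324 and 7461 of all 19938 genes. With CAR array 2 alone the median was −0.52, with CAR array 1 alone −0.76, and over the 14 members at or above the median level −0.43. Next to Cox4i1, the genes of the ubiquitous subunits Cox5a and Cox6b1 had large differences that missed the threshold. Cox5a was at 4.69 and 5.50 on the CAR arrays, against 6.84 on the PaS array (−1.74 ± 0.42, SE; limma adjusted p = 0.0515), and Cox6b1, which lies at the dimer contact and the cytochrome c side, at 6.41 and 7.02 against 8.17 (−1.46 ± 0.36; adjusted p = 0.0548). Both passed in the 4 settings under which Ndufs5 passed. Cox6c, the brightest member on the PaS array, was at 7.79 and 8.66 against 9.40, and Cox5b at 5.70 and 6.85 against 7.14; neither passed as deposited, and both did after quantile normalization (limma adjusted p = 0.0126 and 0.0252). By contrast Cox8a rose, Cox7b was at 6.95 and 7.59 against 6.48 and Ndufa4 at 7.14 and 8.36 against 6.65, and Cox6a1 differed by 0.01 with the PaS value between the CAR values.

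Several subunits of complex IV exist as a ubiquitous form and a form of particular tissues, and the differences of each pair are given side by side, since levels of different probe sets cannot be compared. Cox4i1 fell by 2.34 log2 units whereas Cox4i2, the form of lung and of oxygen-sensing cells, differed by 0.44 ± 0.29 (SE). Cox6a1 and the heart and muscle form Cox6a2 differed by 0.01 and 0.38, and Cox6b1 and the testis form Cox6b2 by −1.46 and 0.31. Cox7a2 and the muscle form Cox7a1 differed by −1.04 and −1.01, Cox7b and Cox7b2 by 0.78 and −0.81. Cox8a rose by 1.90, whereas Cox8b, of muscle and brown fat, and Cox8c, of testis, differed by −0.81 and −0.92. Of these tissue forms, Cox7b2 and Cox8b lay below the median on all 3 arrays and none reached a log2 intensity of 5. As deposited 0 of them passed the test. After quantile normalization Cox7a1 (−1.20, limma adjusted p = 0.0185) and Cox8c (−0.98, adjusted p = 0.0320) fell. Ndufa4 and its paralogue Ndufa4l2, not counted among these forms, differed by 1.10 and −1.79. Ndufa4l2 reached 5.20 on the PaS array and passed the test, as given above. The muscle markers Ckm, Acta1, Mb and 4 others had a summed intensity of 105 and 86.3 in CAR cells and 98.8 on the PaS array. Whether the 2 members of a pair differ from each other in their response was not tested.

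**Figure D4:**
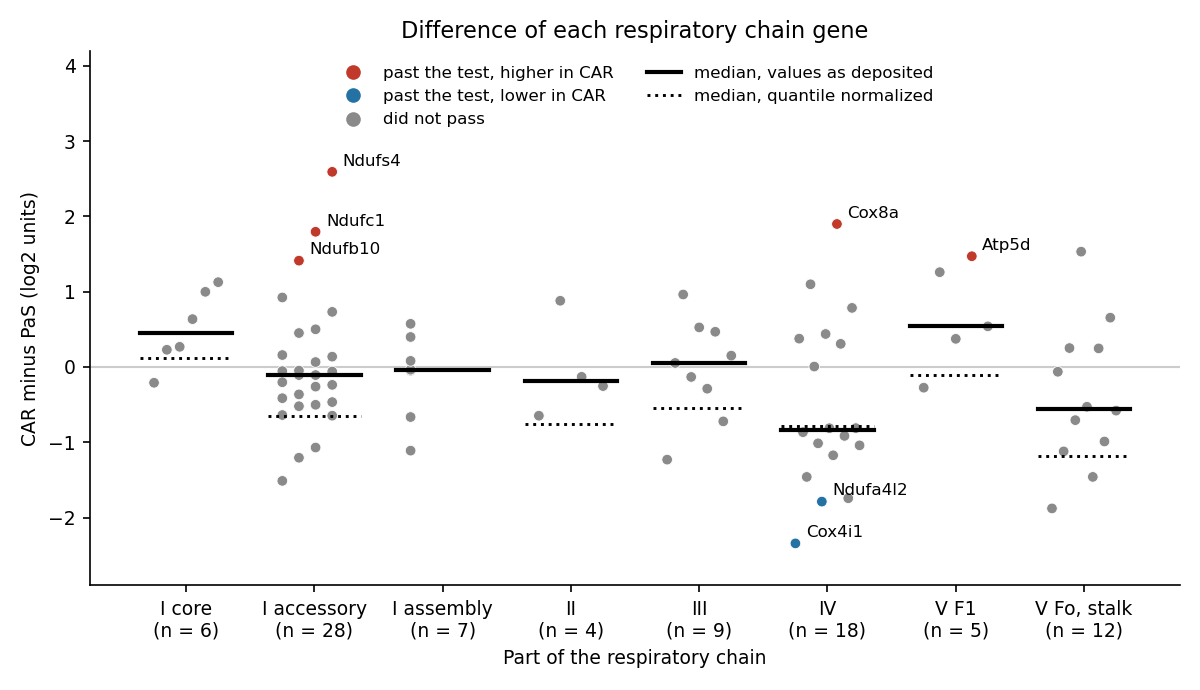
Difference between CAR cells and the PaS array (log2 units) for each of the 89 members, by part of the chain, with the median as deposited (solid bar) and after quantile normalization (dotted bar). Ndufs4, Cox8a, Ndufc1, Atp5d and Ndufb10 stand above and Ndufa4l2 and Cox4i1 below; the median lies above 0 in both scalings for the complex I core, changes sign for F1 (0.54 and −0.10) and complex III (0.05 and −0.55), and lies below 0 in both for the other 5 groups.

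ATP synthase joins a catalytic head to a membrane part. Of 5 genes of F1 and the central stalk, 1 rose (Atp5d) and 0 fell, with a median of 0.54, which turned to −0.10 after quantile normalization and was 0.25 with CAR array 1 alone and 0.86 with CAR array 2 alone. The catalytic subunits Atp5a1 and Atp5b, alpha and beta of the hexameric head, were at 6.69 and 6.94 against 6.45 and at 7.43 and 8.08 against 7.21. Their differences of 0.37 ± 0.29 and 0.54 ± 0.37 (SE) did not pass and were −0.27 and −0.10 after quantile normalization. Atp5c1, the gamma subunit that turns inside the head, differed by −0.27. Atp5e, the epsilon subunit bound to Atp5d in the central stalk, was at 4.31 and 5.14 against 3.46 (1.26 ± 0.42, SE; limma adjusted p = 0.101, and 0.0253 after quantile normalization).

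Of the 12 genes of Fo and the peripheral stalk, 0 passed the test, 4 lay above 0 and 8 below. The median was −0.55 (−1.19 after quantile normalization, where 0 rose and 7 fell, beside 13.2% and 14.2% of all genes). Atp5k, subunit e, was at 4.69 and 6.09 on the CAR arrays, against 7.27 on the PaS array (−1.88 ± 0.60, SE; limma adjusted p = 0.0922). Atp5md, also known as DAPIT, was at 5.43 and 6.09 against 7.22 (−1.46, adjusted p = 0.0592 in limma's test), Atp5j2, subunit f, at 6.47 and 6.79 against 7.75, and Atp5l, subunit g, at 7.96 and 7.33 against 8.35. All 6 probe sets of Atp5l gave a negative difference, between −0.98 and −0.54. Both CAR arrays lay below the PaS array for each of these genes, and all 4 fell after quantile normalization.

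The genes Atp5g1, Atp5g2 and Atp5g3 encode the c subunit of the rotor ring, with different leader peptides and the same mature protein, and they lay in different directions. Atp5g1 was at 5.40 and 6.50 against 4.42 (1.53 ± 0.50, SE; limma adjusted p = 0.0982), Atp5g2 at 5.87 and 5.87 against 5.62, and Atp5g3 at 7.01 and 7.36 against 8.17 (−0.99 ± 0.31; adjusted p = 0.0884, and 0.0056 after quantile normalization). For Atp5g1 both CAR arrays lay above the PaS array and for Atp5g3 below it. Of the peripheral stalk, Atp5o, which caps the head, differed by 0.66, Atp5h by 0.25, Atp5pb by −0.06 and Atp5j by −0.53. Atpif1, the inhibitor of the enzyme, lies outside the naming rule of the members; it was at 6.79 and 8.17 against 9.23 and did not pass (−1.75 ± 0.59, SE; limma adjusted p = 0.105).

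CAR array 2 was higher than CAR array 1 for 67 of the 89 members (75.3%), with a median gap of 0.39 log2 units, against 48.6% and −0.01 over all genes and 70.0% and 0.21 over the 4985 brightest genes. The gap reached 1 log2 unit in 13 members, CAR array 2 being higher in all 13, which is 14.6% of members beside 3.58% of all genes. Ndufc2 (4.79 and 7.06), Ndufa1 (3.92 and 6.12), Ndufb9 (4.83 and 6.69) and Cox7a2 (4.51 and 6.13) had the widest gaps. For Ndufc2 and Ndufa1, at 5.43 and 5.22 on the PaS array, the CAR arrays lay on opposite sides of it. With CAR array 1 alone the median difference of the members was −0.27, and with CAR array 2 alone 0.06. Across the 89 genes the CAR arrays correlated at r = 0.912 with each other, and at 0.743 and 0.798 with the PaS array; genes of the same arrays are not independent, and over all genes these values were 0.963, 0.764 and 0.764.

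**Figure D5:**
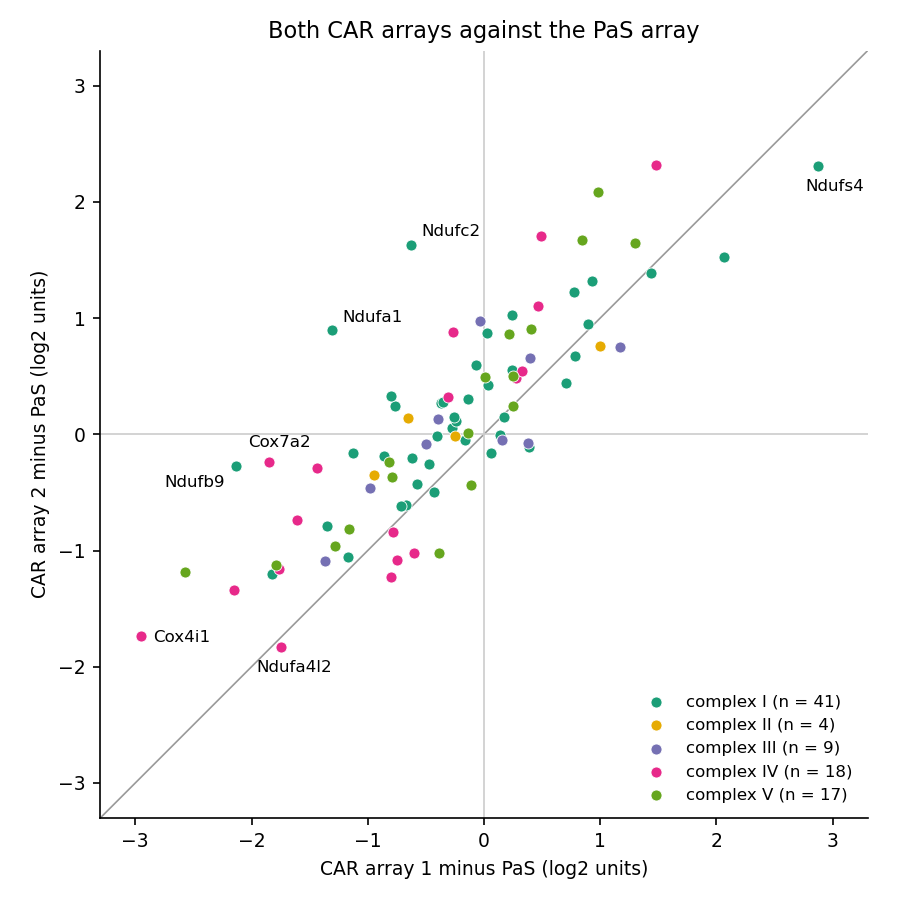
Difference of each respiratory chain gene from the PaS array (log2 units) on CAR array 1 (horizontal) and CAR array 2 (vertical), coloured by complex; the diagonal marks equal values. Most points lie above the diagonal, as 67 of 89 genes were higher on CAR array 2, and Ndufc2 and Ndufa1 lie below 0 on one axis and above 0 on the other.

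Other nuclear genes of mitochondrial function were read from lists in the same fit. Of 41 assembly factors named outside the rule, 1 rose and 0 fell: Tmem126b, a complex I assembly factor, stood at 4.93 and 5.09 in CAR cells and 1.78 on the PaS array (limma adjusted p = 0.0114); the PaS value lay below that array's 5th percentile of 2.40, so no fold is given. Of 21 genes of electron carriers, coenzyme Q synthesis and supercomplexes, 1 rose and 1 fell: Coq9, which aids coenzyme Q synthesis, was at 4.58 and 4.95 against 3.05, under the PaS array's lower quartile of 3.16, and Cyct, the testis cytochrome c, at 1.64 and 1.44 against 2.81. Of 17 genes of pyruvate oxidation and the tricarboxylic acid cycle, 0 passed (4 at an unadjusted p under 0.05), with a median of 0.10. The medians of these lists were 0.02, 0.24 and 0.10, beside −0.06 for the chain and −0.10 for all genes. After quantile normalization they were 0.07, −0.15 and −0.32, beside −0.55 for the chain and −0.02 for all genes. In that setting 3 genes of the pyruvate and tricarboxylic acid list rose and 3 fell, beside 13.2% and 14.2% of all genes.

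Of 15 carriers, channels and uncoupling proteins 2 rose and 1 fell. Slc25a4, the ADP/ATP carrier that exchanges the product of complex V, was at 7.81 and 8.27 against 6.39 (3.15-fold, limma adjusted p = 0.0370), and Vdac3, an outer membrane channel, at 5.89 and 6.48 against 4.21 (3.93-fold). Ucp1, the uncoupling protein of brown fat, was at 1.76 and 1.98 against 3.53. Of 19 regulators of mitochondrial gene expression and DNA 0 rose and 1 fell: Ppargc1a, a coactivator of respiratory genes, was at 1.94 and 1.69 against 3.33 (adjusted p = 0.0352 in limma's test). Ppargc1a, Ucp1 and Cyct lay below the median of all genes on every array, so the size of these differences is uncertain; after quantile normalization Ppargc1a and Ucp1 still passed (limma adjusted p = 0.0171 and 0.0132) and Cyct did not (0.0733).

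Subunits of other large complexes were read in the same way. Of 76 mitochondrial ribosomal protein genes 5 rose and 2 fell, with a median of 0.10 (−0.23 after quantile normalization); Mrps6 was 4.28-fold higher, and Mrpl41, at 3.28 and 4.51 against 7.04, was 8.88-fold lower in CAR cells. Of 61 cytosolic ribosomal protein genes 0 rose and 3 fell, with a median of −0.69, and 56 lay below 0. After quantile normalization 0 rose and 40 fell, with a median of −1.20. Of 39 proteasome subunit genes 4 rose and 2 fell, with a median of 0.45 (−0.02 after quantile normalization). CAR array 2 was higher than CAR array 1 for 57 of the 61 ribosomal (93.4%, median gap 0.55) and 33 of the 39 proteasome genes (84.6%, 0.40), so the gap between the CAR arrays was seen outside the respiratory chain as well. Over all genes 8.56% rose and 6.42% fell as deposited, and 13.2% and 14.2% after quantile normalization. Differences between these lists were not tested.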

How the data were processed

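RNA of sorted mouse bone marrow stromal cells was amplified with a NuGEN kit and hybridised to 3 Affymetrix arrays, per the labels' protocols. The authors deposited linear signal intensities, with 1 value for each probe set, made with Affymetrix Expression Console and RMA per the submitters' processing notes; no version or build was given there. RMA equalises arrays before probe sets are summarised, yet the deposited spreads differ, so results were recomputed after a second quantile normalization. Low values cannot be told from background, because no detection calls were used.

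Log2 of the intensity was taken here with no pseudocount. Of 35556 probe sets, 21789 carried 1 symbol, 1621 several (not named) and 12146 none here; symbols were updated by gene ID (21698 matched), which left 19938 genes, and 16 of the 89 members had several probe sets, which disagreed in sign for Atp5h, Atp5pb, Ndufa11 and Uqcr11. The gene table lists 14 pseudogenes named after 9 members, and probe sets may share signal with such copies. Several newer symbols (Atp5f1b and the like) stand in the files under older ones (Atp5b), which are used here.

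CAR minus PaS was fitted across all genes with limma 3.58.1 (R 4.3.3, lmFit and eBayes, two-sided, Benjamini-Hochberg over 19938 genes, threshold 0.05). The fit has 1 residual degree of freedom and 4.20 prior ones (prior SD 0.25 log2 units): the spread is that of the 2 CAR arrays, and the lone PaS array is taken to have the same spread. The number of arrays limits the precision; an exact permutation of 2 arrays against 1 cannot give a p below 0.333. The labels call the CAR arrays replicates of 2 mice. Errors are moderated SEs. The fit was checked on simulated arrays in which the PaS array had the same spread as the CAR arrays. Such a check cannot test whether the real PaS array has that spread. The members and lists were chosen with earlier results of these data known. Named with values are the redox and catalytic subunits, isoform sets, every member past the test and the 5 largest differences in each direction; further members (such as Ndufb7, Ndufaf7, Uqcrh, Cox6c, Atp5e, Atp5md, Ndufc2) were named after their values were seen. Promoter sequences and the gene table are RefSeq's (GRCm38.p6).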

Additional observations from a re-analysis of the deposited data

How the results depend on the processing

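No paired analysis was possible because the CAR and PaS cells came from different mice. Against 7 members called as deposited, settings gave 17 (arrays centred), 38 (quantile normalization), 14 (dimmer genes left out) and 13 (robust prior). Of these, 10, 31, 9 and 8 were lower, and a pseudocount of 1 left 1 lower. Platform symbols, the mean of all probe sets and an intensity trend in the variance left 5 higher and 2 lower. Against 14 members 2-fold apart in both CAR arrays as deposited, quantile normalization gave 23, with 2 higher and 21 lower. With a single CAR array, which asks less, there were 25 to 26, with 7 to 13 higher and 13 to 18 lower. Quantile normalization moved the median difference to −0.55 over all members, −0.65 for complex I accessory subunits, −0.76 for complex II, −0.55 for complex III, −0.10 for F1 and −1.19 for Fo. The complex III median of 0.05 is smaller than the SE of each of its members. It was 0.0799 with arrays centred and −0.0395 with the dimmer genes left out, where complex IV gave −0.43. Leaving out 1 CAR array, medians ran from −0.27 to 0.06 for all members, 0.14 to 0.81 for the complex I core, −0.40 to 0.09 for accessory subunits, −0.45 to 0.07 for complex II, 0.25 to 0.86 for F1, −0.14 to 0.28 for assembly factors, −0.0473 to −0.0350 for complex III, −0.76 to −0.52 for complex IV and −0.59 to −0.31 for Fo. The filter on level by its construction left 8 of 9 members of complex III, 14 of 18 of complex IV and 4 of 7 assembly factors. Other causes were not tested. Of 41 named members, 32 kept their direction throughout. Of the others, none of them called, 7 reversed after quantile normalization: Ndufs7 (−0.23), Ndufs8 (−0.22), Uqcrc2 (−0.55), Atp5a1 (−0.27), Atp5b (−0.10), Cox6a1 (−0.58) and Atp5g2 (−0.34). With a single CAR array, Uqcrfs1 (0.13), Cox6b2 (−0.26), Cox6a1 (−0.31), Ndufs8 (−0.06) and Uqcrc2 (−0.05) changed sign. With signal intensities and no replicate of the PaS array, the smallest difference called in a member as deposited was 1.41 log2 units.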
